A study of Mus musculus with 4 samples.

Results

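The genes examined here are 10 regulators and targets of the coactivators YAP and TAZ, as measured by RNA-seq in granulosa cells (GCs), the supporting cells of the ovarian follicle, that were taken from mice and cultured. They were chosen by gene name, and each name matched a single row, so that 10 of 25239 listed genes were followed. They comprise the coactivators Yap1 and Wwtr1, their DNA-binding partner Tead1, the upstream regulators Lats2, Amotl2 and Ajuba, and the secreted or nuclear targets Thbs1, Ctgf, Cyr61 and Ankrd1. Ctgf and Cyr61 are the older symbols of Ccn2 and Ccn1. The experiment had 4 libraries of wild-type C57BL/6 GCs from females at postnatal day 24. The 2 control libraries came from GCs cultured without inhibitor, and the 2 HDACi 4b libraries came from GCs cultured with HDACi 4b, an inhibitor of the histone deacetylases HDAC1 and HDAC3. Per the study's methods for mural GCs, cells were taken from large antral follicles of mice primed with PMSG, which acts like FSH, and were plated in serum so that they attached. All groups share that priming and that serum. The methods describe overnight treatment of mural GCs with HDACi 4b ahead of coculture with oocytes, but do not say whether that dose and time also apply to the RNA-seq libraries, nor whether replicates were separate cultures or mice. The p-values therefore describe only how far these libraries scatter, and that scatter may be technical.

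YAP and TAZ carry no DNA-binding domain and act on genes through the TEAD transcription factors. The Hippo kinases restrain them. Stk3 and Stk4 activate Lats1 and Lats2, which phosphorylate YAP and TAZ so that they are held in the cytoplasm or degraded, while angiomotins tether them at cell junctions and the LIM protein Ajuba binds and inhibits LATS. In the ovary, Hippo signalling restrains follicle growth, and CCN factors such as CTGF are classic products of YAP activity. Phosphorylation, location and protein levels of YAP were not measured, and the values below are transcript levels only. No library separates HDAC3 from HDAC1.

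TEAD factors bind DNA through a short core, GGAATG. On the other strand it reads CATTCC. The promoters of the genes were therefore read for these letters, on both strands, in the RefSeq window of 300 bases that runs from 250 before to 50 after each start site (build GRCm38.p6). Of the 10 genes, 7 had a promoter in the table, and Thbs1, Ctgf and Tead1 had none. Each of the 7 held the core in at least 1 of its promoters, and 8 of their 9 promoters held it, against 14.7% of all 32851 promoters. The 4 promoters shown here in full before the start site cover the different responses to HDACi 4b, Ankrd1 (higher), Amotl2 and Ajuba (lower) and Cyr61 (not called). They lie at chr19:36119845-36120094 (minus strand), chr9:102717554-102717803 (plus strand), chr14:54577662-54577911 (minus strand) and chr3:145649986-145650235 (minus strand). Each is written 5′ to 3′ with the TEAD core in capitals.
Ankrd1: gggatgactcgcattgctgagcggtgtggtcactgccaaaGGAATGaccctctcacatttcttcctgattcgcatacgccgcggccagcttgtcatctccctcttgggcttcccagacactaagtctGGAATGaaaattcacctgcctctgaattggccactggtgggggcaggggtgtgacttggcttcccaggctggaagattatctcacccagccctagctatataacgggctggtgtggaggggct
Amotl2: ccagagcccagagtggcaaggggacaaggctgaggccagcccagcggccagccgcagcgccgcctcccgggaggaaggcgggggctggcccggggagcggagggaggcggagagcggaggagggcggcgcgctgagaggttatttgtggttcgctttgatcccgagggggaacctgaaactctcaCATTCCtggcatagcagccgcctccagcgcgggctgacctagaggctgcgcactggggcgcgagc
Ajuba: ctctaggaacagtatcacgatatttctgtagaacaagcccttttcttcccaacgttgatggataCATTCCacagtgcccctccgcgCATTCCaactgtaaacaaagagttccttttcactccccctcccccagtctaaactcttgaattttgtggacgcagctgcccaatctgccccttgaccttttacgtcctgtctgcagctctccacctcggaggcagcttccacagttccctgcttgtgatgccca
Cyr61: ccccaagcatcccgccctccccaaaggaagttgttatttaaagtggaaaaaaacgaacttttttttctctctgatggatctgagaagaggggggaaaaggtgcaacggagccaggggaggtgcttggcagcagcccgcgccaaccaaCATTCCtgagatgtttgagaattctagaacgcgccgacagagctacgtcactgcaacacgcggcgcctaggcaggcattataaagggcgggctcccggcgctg

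The core also stood in promoters of the pathway's own regulators, shown here as 30 bases around each site because the rest of the window adds nothing to the comparison. They lie at chr9:8004720-8004749, chr3:57576029-57576058 and chr14:57746102-57746131, all on the minus strand. Wwtr1 and Lats2 each had a pair of start sites in the table. In Wwtr1 both windows held the same core, and in Lats2 only the window of the first start did, with the core just after the start.
Yap1: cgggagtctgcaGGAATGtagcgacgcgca
Wwtr1: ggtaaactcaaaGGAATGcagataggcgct
Lats2: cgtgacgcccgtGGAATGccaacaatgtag

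**Figure D1:**
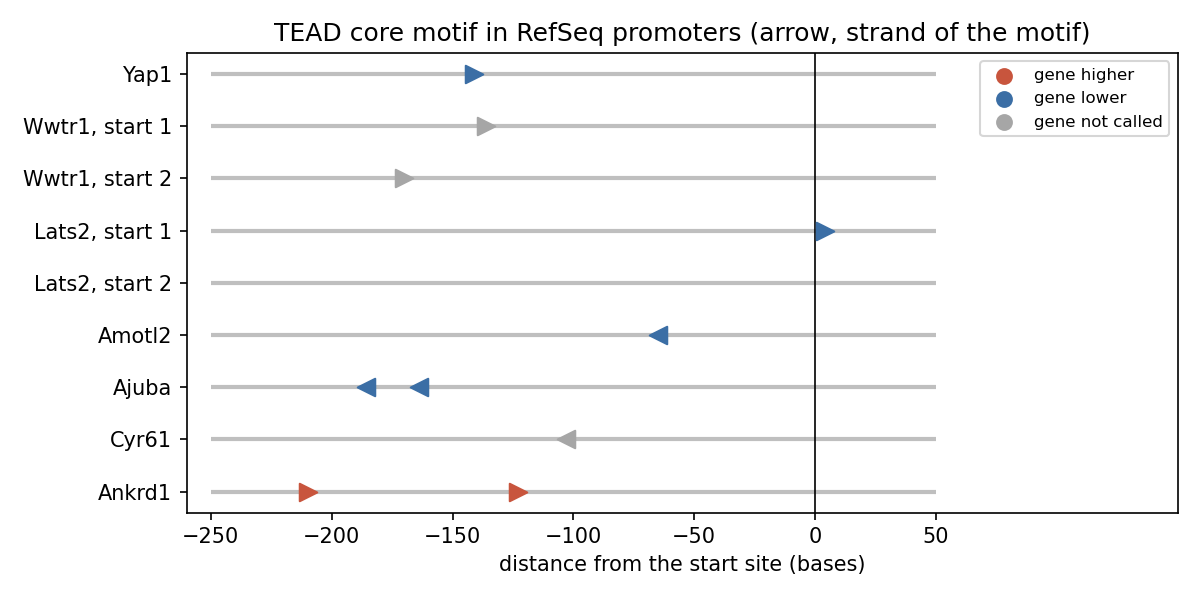
Position of the TEAD core in the 9 RefSeq promoters of 7 genes, as distance in bases from the start site, with arrows pointing along the motif's strand and colours for the call after HDACi 4b. Ankrd1 has cores at -210 and -123 and was higher, Ajuba has cores at -186 and -164 and was lower, and Cyr61 has a core at -103 and was not called.

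The core was thus present in genes that rose, fell and did not pass the test. Across the table, a promoter with the core was found for 14.6% of 2014 genes that were higher, 14.6% of 3484 that were lower and 13.1% of 3301 that were not called. A common YAP/TAZ target signature, which shares some of the 10 genes, had 11 further genes with a promoter, and 3 of them held the core. A match is a description of letters and does not show that a TEAD factor binds.

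HDACi 4b lowered most of these genes and raised 1. Thbs1, Ctgf, Amotl2, Ajuba, Lats2 and Yap1 fell, Ankrd1 rose, and Wwtr1, Tead1 and Cyr61 were not called. Levels are in FPKM, which corrects read counts for the length of a gene and the size of a library. limma was run on log2(FPKM + 1) with a limit of 0.05 on the adjusted p, over the 12054 genes whose mean reached 1 FPKM, and all 10 genes were among these. Of the 10, 6 were lower and 1 was higher, or 7 in either direction, where 38.1% of all genes tested were lower and 22.4% higher, or 60.5% in either direction. In the same 7 genes the libraries of one group all lay beyond those of the other, which held for 83.1% of all genes tested. With an absolute log2 difference of at least 1 as well, 3 were lower and 1 was higher, where 6.70% and 7.54% of all genes were. The median log2 difference of the 10 genes was -0.68, beside -0.15 for all genes tested. The table as a whole therefore leaned towards lower values, and the counts are to be read against it. Scaling by median ratios shifted genes by a median of 0.13, gave 3419 higher and 3397 lower genes in place of 2700 and 4597, and left the 7 called genes of this group called in the same direction. Without HDACi 4b replicate 1 there were 1775 higher and 2796 lower genes in all, again with 6 lower and 1 higher among the 10. With 2 libraries a group the smallest exact permutation p is 0.33, and the calls depend on the variance that limma pools over genes.

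**Figure D2:**
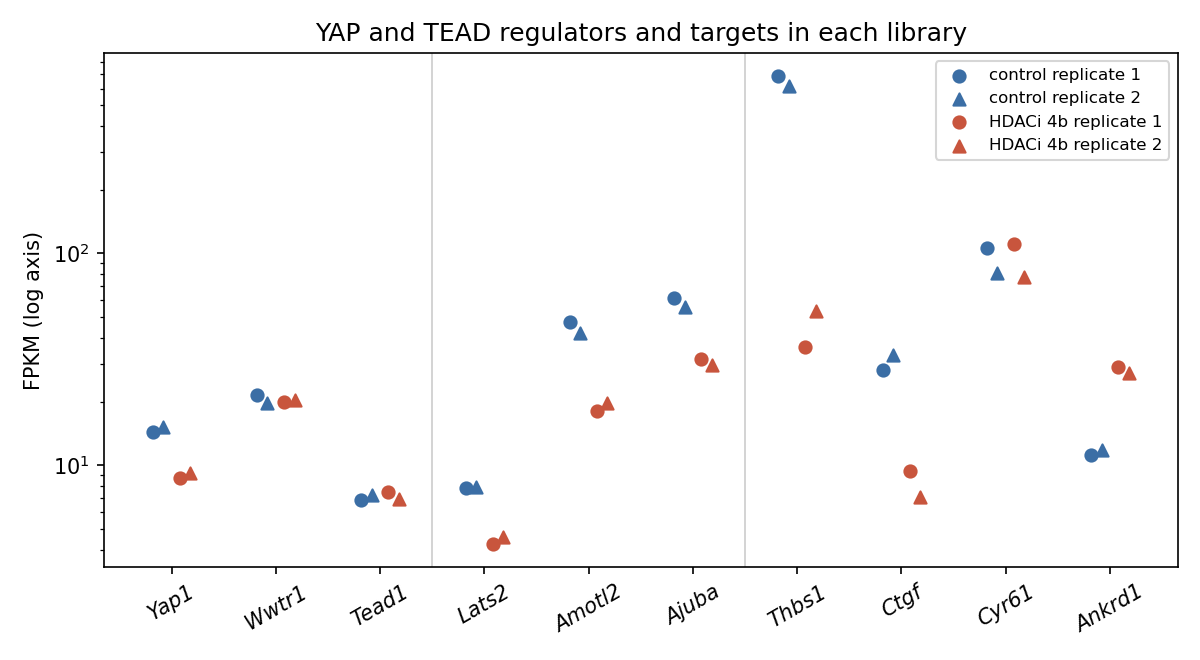
FPKM of the 10 genes in each of the 4 libraries on a log axis, with controls in blue and HDACi 4b in red, circles for replicate 1 and triangles for replicate 2. The groups are apart for 7 genes and overlap for Wwtr1, Tead1 and Cyr61, and Thbs1 drops from 615.1 FPKM or more to 53.8 FPKM or less.

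**Figure D3:**
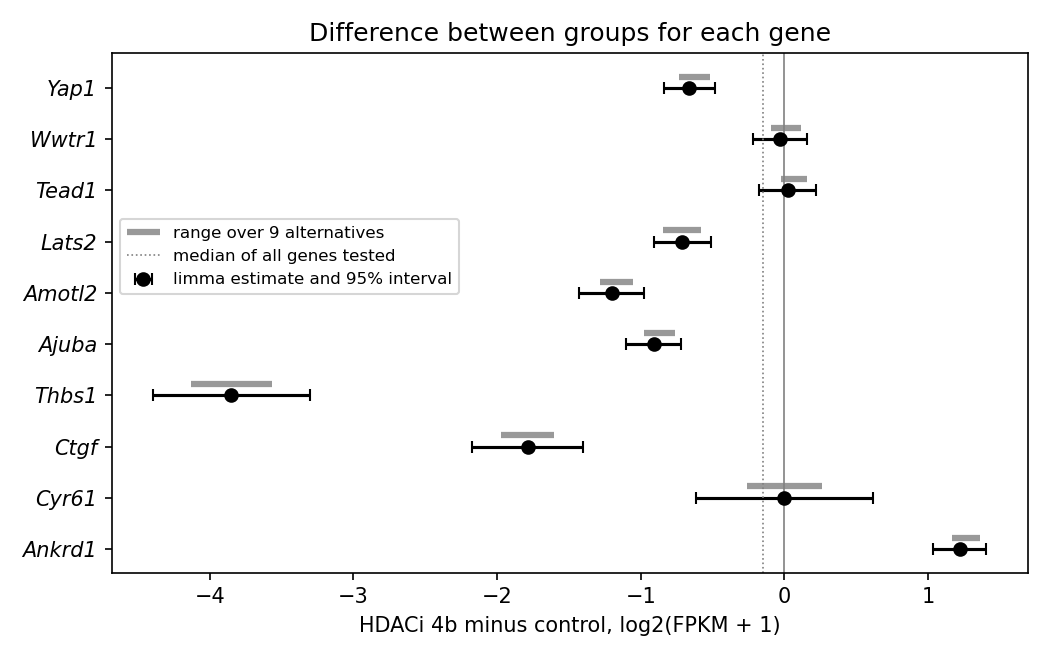
Difference between HDACi 4b and control on the log2(FPKM + 1) scale for the 10 genes, with the limma estimate and its 95% interval (black) and the range over 9 alternative settings (grey bars). Thbs1 is lowest at -3.85 and Ankrd1 highest at 1.22, and the intervals of Wwtr1, Tead1 and Cyr61 include 0.

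Of the coactivators, Yap1 fell and Wwtr1 did not pass the test. Yap1 was at 14.4 and 15.1 FPKM in the control libraries and at 8.71 and 9.24 FPKM in the HDACi 4b libraries. The groups did not overlap, as in 52.0% of all genes tested on the lower side, and the difference was -0.66 ± 0.071 (SE, limma adjusted p = 0.00115). These values rest on 1308 to 2472 reads a library. Wwtr1, which encodes TAZ, was at 21.5 and 19.6 FPKM in control and 19.8 and 20.4 FPKM in treated GCs. Its groups overlapped, its difference was -0.03 ± 0.073, and the 95% interval of -0.22 to 0.16 leaves room for changes of either sign within that range. The level of Wwtr1 relative to Yap1 in the same library, a ratio of FPKM that takes gene length into account, was 1.49 and 1.30 in control and 2.27 and 2.21 in treated libraries. In FPKM, Wwtr1 thus made up 58.2% of the YAP and TAZ sum on average in control and 69.1% in treated GCs. These shares depend on the exon lengths used, 9257 bases for Yap1 and 4779 for Wwtr1. In reads, the control libraries had 2195 and 2472 for Yap1 and 1688 and 1656 for Wwtr1. The ratio was higher in both treated libraries than in either control (exact two-sided permutation p = 0.33, the smallest the design allows).

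Among the TEAD factors Tead2 fell, and Tead1 did not pass the test. Tead1 was at 6.88 and 7.22 FPKM in control and 7.47 and 6.91 FPKM in treated GCs, with overlapping groups and a difference of 0.02 ± 0.078 (95% interval -0.17 to 0.22). Its paralog Tead2 was the most abundant TEAD in control GCs, at 53.5 and 56.8 FPKM, and was at 12.9 and 14.2 FPKM after HDACi 4b. The groups of Tead2 were far apart and the fall was 1.95 ± 0.076 on the log2 scale (limma adjusted p = 0.000105). Tead3 had means of 5.78 and 4.52 FPKM and was not called (adjusted p = 0.0634), although it was called lower without control replicate 1 (adjusted p = 0.0407) and with limma-voom on recovered reads (adjusted p = 0.0259). Tead4 was under the filter, with 8 to 14 reads a library. The 4 TEAD genes summed to 65.9 and 70.4 FPKM in control and 24.9 and 26.03 FPKM in treated libraries, so that Tead2 held 81.2% and 80.6% of the sum in control and 52.0% and 54.5% after HDACi 4b. Tead1 went from 10.4% and 10.2% of the sum to 30.02% and 26.5%, with no called change of its own.

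Vgll4, a cofactor that competes with YAP for TEAD, fell with Tead2. It was at 20.6 and 19.7 FPKM in control and 6.03 and 6.83 FPKM in treated GCs, a difference of -1.51 ± 0.082 (limma adjusted p = 0.000198). Vgll3, another TEAD cofactor, had means of 6.46 and 4.18 FPKM and was not called (adjusted p = 0.0724), but was called lower without control replicate 2 (adjusted p = 0.0198). Of 10 TEAD, YAP, TAZ and VGLL genes listed, 8 matched a row (Vgll1 and Vgll2 were not analysed here) and 7 were tested. Of the 7, 0 were higher and 3 lower, where 22.4% and 38.1% of all genes tested were. Their median was -0.52, beside -0.15 for all genes tested. The 7 include Yap1, Wwtr1 and Tead1, without which 2 of 4 were lower, with a median of -1.01.

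**Figure D4:**
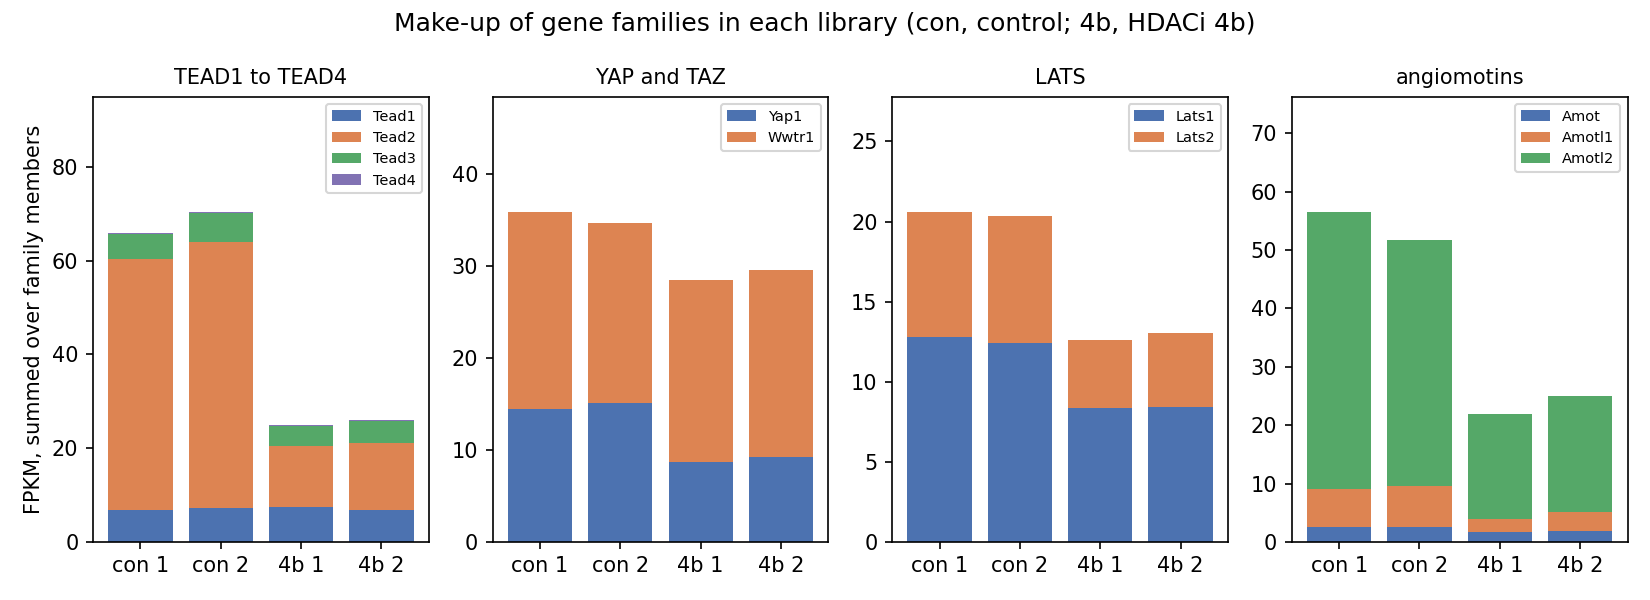
Summed FPKM of 4 gene families in each library, split by member (con, control; 4b, HDACi 4b; each panel has its own axis from 0). The TEAD bars shrink mainly through Tead2 while Tead1 keeps its height, and the angiomotin bars shrink mainly through Amotl2.

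Both LATS kinases, which restrain YAP and TAZ, fell. Lats2, itself a target of YAP, was at 7.80 and 7.94 FPKM in control and 4.26 and 4.60 FPKM in treated GCs, on 481 to 978 reads a library. The libraries of each group lay close together, and the difference was -0.71 ± 0.078 (limma adjusted p = 0.00123). Lats1 went from 12.8 and 12.4 FPKM to 8.34 and 8.43 FPKM, a difference of -0.54 ± 0.067. The LATS sum was thus 20.5 FPKM on average in control and 12.8 in treated GCs, while Lats2 held 38.4% and 34.6% of it.

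Other genes of the kinase module changed both ways. Of 15 listed kinases and adaptors, all tested, 4 were higher and 8 lower, where 22.4% and 38.1% of all genes tested were. Their median was -0.26, beside -0.15 for all genes tested. The 8 include Lats2, without which 7 of 14 were lower, with a median of -0.20. The greatest falls beside Lats2 were those of Wwc2 (-0.88 ± 0.12), an adaptor that promotes LATS activity, Stk3 (-0.72 ± 0.10), a kinase that activates LATS, and Map4k4 (-0.67 ± 0.081), which acts alongside it. The NF2 tumour suppressor gene Nf2, which brings LATS to the membrane, rose 1.26-fold from 21.4 to 26.9 FPKM, and the Wwc2 paralog Wwc1 rose 1.44-fold. Sav1, the scaffold of Stk3 and Stk4, had means of 17.9 and 17.0 FPKM and was not called. Without HDACi 4b replicate 1 the number of higher genes was 1 in place of 4.

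The junction proteins Amotl2 and Ajuba fell as well. Amotl2, an angiomotin that binds YAP and is also induced by it, was at 47.5 and 42.1 FPKM in control and 18.0 and 19.8 FPKM in treated GCs. The treated libraries were both far below the controls, and the difference was -1.20 ± 0.089 (limma adjusted p = 0.000411). Its paralog Amotl1 fell by 1.06 ± 0.14 from 6.76 to 2.76 FPKM on average. Amot, the least abundant of the family, had means of 2.55 and 1.80 FPKM, and its call (adjusted p = 0.0346) was lost in turn without each of the 4 libraries (adjusted p of 0.0682, 0.095, 0.174 and 0.0772). Amotl2 held 79.3% to 84.0% of the angiomotin sum in every library, while the sum went from 56.5 and 51.7 FPKM to 21.9 and 24.96 FPKM.

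Ajuba was at 61.6 and 56.1 FPKM in control and 31.8 and 29.8 FPKM in treated GCs. Both treated values were well below both controls, with a difference of -0.91 ± 0.077 (limma adjusted p = 0.000574). The related LIM proteins did less. Limd1 had means of 17.5 and 13.6 FPKM and was called lower (adjusted p = 0.0273), but not without control replicate 2 or HDACi 4b replicate 1 (adjusted p = 0.0964 and 0.151) nor under median-ratio scaling (adjusted p = 0.128). Wtip was at 13.3 and 15.1 FPKM in control and 12.9 and 14.3 FPKM in treated GCs, with overlapping groups. Across 15 junction proteins and scaffolds, of which 14 were tested, 0 were higher and 8 lower, where 22.4% and 38.1% of all genes tested were. Their median was -0.34, beside -0.15 for all genes tested. The 8 include Amotl2 and Ajuba, without which 6 of 12 were lower, with a median of -0.29. The protocadherin Dchs1 fell by 1.17 ± 0.14, from a mean of 2.96 to 0.751 FPKM, or 3.94 times as much in control. Pard3, a polarity protein, fell by 0.57 ± 0.089. The number of lower genes was 5 under median-ratio scaling and also 5 without HDACi 4b replicate 1.

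The 4 targets did not move together. Thbs1, Ctgf, Cyr61 and Ankrd1 are each induced by YAP and TEAD in many cells, and here a pair of them fell, 1 was not called and 1 rose. Thbs1 encodes thrombospondin-1, a secreted matrix protein that inhibits vessel growth and activates latent TGF-beta. It had 684.9 and 615.1 FPKM in control and 36.2 and 53.8 FPKM in treated GCs, with 68373 and 65993 reads against 3560 and 5212. It was 37th of 12054 genes in control level and had the 7th lowest difference, -3.85 ± 0.20 (limma adjusted p = 0.000374). The mean level was 14.5 times as high in control as in treated GCs.

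Ctgf encodes connective tissue growth factor, a matricellular protein. It was at 28.3 and 33.1 FPKM in control and 9.40 and 7.08 FPKM in treated GCs, on 1333, 1674, 436 and 323 reads. The groups were apart, and the difference was -1.79 ± 0.15 (limma adjusted p = 0.000731), or 3.73 times as much in control. Cyr61, its closest relative among the classic targets, was at 106.7 and 80.6 FPKM in control and 111.2 and 77.2 FPKM in treated GCs. Replicate 1 was the higher library in both groups, the groups overlapped, and the ratio of the means was 1.01. The interval of the Cyr61 difference, -0.61 to 0.61, is wide, so a change of up to about that size cannot be told from none at this spread. The ratio of Cyr61 to Ctgf in the same library was 3.76 and 2.43 in control and 11.8 and 10.9 in treated libraries (exact two-sided permutation p = 0.33, the smallest the design allows).

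Ankrd1 encodes a nuclear ankyrin-repeat cofactor known from heart and skeletal muscle. It was at 11.2 and 11.9 FPKM in control and 29.2 and 27.2 FPKM in treated GCs. The treated libraries were both above the controls, as in 31.1% of all genes tested on the higher side, and the rise was 2.45-fold, or 1.22 ± 0.073 on the log2 scale (limma adjusted p = 0.000241). Its paralog Ankrd2 was under the filter, at 0.11 and 0 FPKM in control and 0.39 and 0.40 FPKM in treated libraries.

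Other YAP/TAZ targets were called in both directions, with counts near those of all genes. A signature of 22 genes that respond to YAP or TAZ in many tumours includes Ctgf, Cyr61, Ankrd1, Amotl2 and Lats2, and 17 others. Of these 17, 14 were tested, and 2 were higher, 6 lower and 6 not called, where 22.4% of all genes tested were higher and 38.1% lower. Their median was -0.39. Myof, a membrane repair protein, fell by 1.91 ± 0.088, from 29.0 and 25.3 FPKM to 6.29 and 6.62 FPKM. Ccdc80, a matrix protein, fell by 1.81 ± 0.18, from a mean of 5.16 to 0.745 FPKM. Rbms3, an RNA-binding protein, fell by 1.31 ± 0.17, from a mean of 2.49 to 0.395 FPKM. The mean level was 6.93, 6.29 and 4.20 times as high in control for Ccdc80, Rbms3 and Myof. The genes that rose were Nt5e (difference 1.08 ± 0.19), the enzyme that makes adenosine outside the cell, and F3 (0.76 ± 0.17), the tissue factor that starts coagulation, both named after their values were seen. The filter took the mean over all 4 libraries. Nt5e passed it through its treated level, with means of 0.782 and 2.75 FPKM. Ccdc80, Rbms3 and Tgfb2, all called lower, passed it through their control level, with treated means of 0.745, 0.395 and 0.688 FPKM. Without HDACi 4b replicate 1 the whole signature had 1 higher gene in place of 3.

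Members of the CCN and thrombospondin families differed from each other. Wisp2, a CCN gene next to Cyr61 in abundance, went from 45.8 and 65.3 FPKM to 23.9 and 26.7 FPKM, a difference of -1.09 ± 0.18 (adjusted p = 0.00789) that was not called without HDACi 4b replicate 1 (adjusted p = 0.0518). Wisp1 was at 1.30 and 1.58 FPKM in control and 1.88 and 1.72 FPKM in treated GCs and was not called, and Nov was under the filter, at 0 to 0.16 FPKM. Cyr61 held 58.5% and 44.6% of the CCN sum in control and 75.9% and 68.4% in treated libraries, and Ctgf 15.6% and 18.3% against 6.41% and 6.27%. Thbs3 was higher after treatment, at 1.58 and 1.34 against 2.29 and 2.37 FPKM (adjusted p = 0.0178). That call was lost without control replicate 2, HDACi 4b replicate 1 or HDACi 4b replicate 2 (adjusted p = 0.0529, 0.0874 and 0.0967). Thbs4, named after its values were seen, had means of 5.02 and 10.7 FPKM and was not called (adjusted p = 0.0611). Thbs2 lay under the filter at 0.17 to 0.27 FPKM, so that Thbs1 was the main thrombospondin of control GCs. Of 11 genes in both families 7 were tested, with 1 higher and 3 lower, where 22.4% and 38.1% of all genes tested were. Without Ctgf, Cyr61 and Thbs1, 4 were tested, with 1 higher and 1 lower.

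The list of SRF, its MRTF cofactors and genes they drive, which answer to the actin cytoskeleton as YAP does, was mostly lower. Of all genes tested, 38.1% were lower and 22.4% higher, with a median of -0.15. Of 13 tested, 1 was higher (Ankrd1, which is in this list too) and 10 were lower, with a median of -0.81, and 6 were lower without HDACi 4b replicate 1. Smooth muscle actin Acta2 fell from 162.1 and 245.1 FPKM to 23.5 and 41.5 FPKM, and Actg2 from 20.2 and 27.8 FPKM to 2.34 and 4.27 FPKM. The actin crosslinker Flna fell from 124.9 and 136.1 FPKM to 49.1 and 53.1 FPKM. The list holds the regulators themselves: Srf and the MRTF gene Mkl2 were lower, and the MRTF gene Mkl1 was not called. It also holds several genes that mark contractile cells.

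Genes whose products hold YAP in the cytoplasm or lead to its breakdown were called in both directions. Of 11 tested, 4 were higher and 5 lower, where 22.4% and 38.1% of all genes tested were. Their median was -0.27, beside -0.15 for all genes tested. With median-ratio scaling the count of lower genes was 0, and without HDACi 4b replicate 1 there were 2 higher and 0 lower. The 14-3-3 genes Ywhag and Sfn, whose products bind phosphorylated YAP, rose by 0.91 ± 0.064 and 0.80 ± 0.11, with Ywhag at 78.2 and 79.3 against 152.8 and 145.2 FPKM. The kinase gene Csnk1d had a difference of -0.34 ± 0.064 that was not called without HDACi 4b replicate 1 (adjusted p = 0.0685) or under median-ratio scaling (adjusted p = 0.0554).

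**Figure D5:**
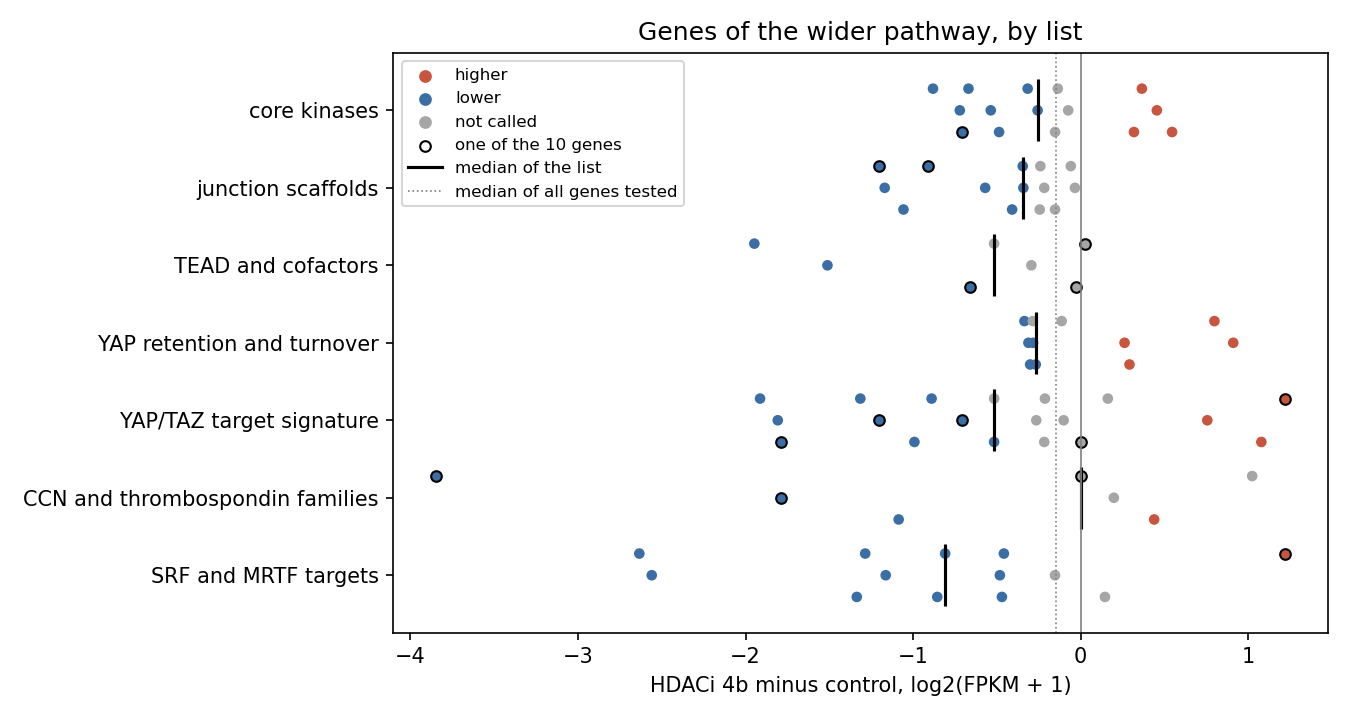
Log2 difference of each tested gene in 7 lists of the wider pathway, coloured by call, with black rings for the 10 genes, a black line for the list's median and a dotted line for the median of all genes tested. The median of the list labelled SRF and MRTF targets, which also holds Srf, Mkl1 and Mkl2, is lowest at -0.81. The junction scaffolds and TEAD lists hold no higher gene.

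Markers of the labelled cell type were present, and both these and markers of some other cells moved with treatment. The 10 GC markers summed to 1724 and 1678 FPKM in control and 702.6 and 862.9 FPKM in treated libraries, of which Inha, an inhibin subunit, made up 1219 FPKM in control replicate 1. Of the 10, 6 were lower (Inha, Inhba, Foxl2, Esr2, Fst and Gata4), 2 higher (Fshr and Nr5a2) and 2 not called (Amh and Wt1). Of all genes tested, 38.1% were lower and 22.4% higher. Mean levels went from 1240 to 510.4 FPKM for Inha, 67.8 to 26.4 FPKM for Foxl2 and 22.5 to 1.54 FPKM for Esr2. Fshr, the FSH receptor, rose 1.72-fold, and Nr5a2, a nuclear receptor, rose from a mean of 35.3 to 53.1 FPKM. The 6 contractile markers, among them Acta2 and Actg2, summed to 189.2 and 284.1 FPKM in control and 28.7 and 50.1 FPKM in treated libraries. All 4 of them that were tested were lower, while Tagln and Des stayed at or below 1.15 FPKM in every library. The 7 theca and stroma markers summed to 38.4 and 69.7 FPKM in control and 10.8 and 16.8 FPKM in treated libraries, with all 3 that were tested lower. Under the filter, Dcn and Lum lay lower in both treated libraries. Pdgfra lay higher, at 0.49 and 0.64 FPKM in control and 0.66 and 0.79 FPKM in treated libraries. Cyp17a1, which defines theca cells, was at 0 to 0.03 FPKM. Thbs1 and Ctgf are made by stromal cells as well as by GCs, and in bulk RNA fewer cells of a type and less RNA per cell cannot be told apart. The part of these cells in the falls of Thbs1, Ctgf and Amotl2 was not tested. Endothelial markers, all under the filter, summed to 1.17 to 1.79 FPKM, with overlapping groups. Pecam1 and Cdh5 overlapped as well. Tek, Kdr and Emcn lay lower in both treated libraries, with means of 0.205 and 0.0528 FPKM for Tek, 0.181 and 0.0929 FPKM for Kdr and 0.182 and 0.0288 FPKM for Emcn. The 5 macrophage markers summed to 66.7 and 103.9 FPKM in control and 56.2 and 47.7 FPKM in treated libraries. Lyz2 was lower and Cd68 higher in the test. The other 3 were under the filter and lay lower in both treated libraries, with means of 1.64 and 0.335 FPKM for Adgre1, 0.912 and 0.216 FPKM for Csf1r and 0.0766 and 0.0153 FPKM for Ptprc. Oocyte markers summed to 3.73 and 1.27 FPKM in control and 3.97 and 6.60 FPKM in treated libraries. Among them Zp3, Bmp15 and Ooep, all under the filter, lay higher in both treated libraries. Gdf9, which was not called, and Dppa3, under the filter, had overlapping groups.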

How the data were processed

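Groups and replicate numbers came from the sample titles. The protocol fields describe tamoxifen-injected mice and frozen ovaries, but titles and design describe cultured wild-type cells and were followed. Bowtie 0.12.2 and mm8 are listed by the submitters' processing notes. The sources used here do not name the counter, its annotation or its use of strand, so overlapping and antisense genes cannot be told apart. The deposited table holds FPKM computed by the authors, 1 column per library. That unit was settled from the values, since for 21755 of 24063 genes matched to GENCODE M21 (90.4%) multiplying by exon length returned whole reads (within 0.001) in each of the 4 libraries. Totals behind the columns were 16438728 and 17665107 (control) and 16215581 and 15951875 reads (HDACi 4b), so that at 2 kb 1 read was worth 0.028 to 0.031 FPKM. Reads of Ankrd1 and Ajuba were not recovered whole.

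limma 3.58.1 (R 4.3.3, trend and robust, two-sided, Benjamini-Hochberg adjustment) was applied to log2(FPKM + 1) of the 12054 genes whose mean over the 4 libraries reached 1 FPKM. A gene could thus pass only through the group where it was high. Differences are on that scale, where changes of low genes come out too small, and errors are SE. Folds are ratios of mean FPKM. Shares and ratios between genes depend on annotated exon lengths, and the exons in use in these GCs were not measured. Alternatives were a pseudocount of 0.1, no filter, median-ratio scaling, a replicate block and leaving out each library. Limma-voom on recovered reads (scaled by library totals, at least 10 reads in 2 libraries) was added after seeing the data. Its reads were FPKM times exon length, rounded, for all matched genes. That includes genes whose reads were not recovered whole, such as Ankrd1, Ajuba and Tead3. The fit was tested on simulated data, where it recovered nearly all changed genes but made false calls more often than the nominal rate of the adjusted p. Calls near the threshold are therefore to be taken as less certain than their adjusted p states. The simulation changed few genes and gave all genes a common dispersion, whereas 60.5% of genes tested were called here. Its rates cannot be read as those of the calls above. Named were the 10 genes, their close paralogs, and per list the 3 called genes with the greatest absolute difference. Other genes, and the family sums, were chosen after their values were seen. The members and lists were chosen with earlier results of these data known. Promoter sequences are RefSeq's (GRCm38.p6). The deposited table gives no coordinates, and none were converted. Figures were drawn with matplotlib 3.10.9.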

Additional observations from a re-analysis of the deposited data

How the results depend on the processing

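The 6 falls and 1 rise among the 10 genes kept their direction and stayed under an adjusted p of 0.05 in limma in each of 9 alternatives, and the 10 genes gave 6 lower and 1 higher in each. For 25 of 36 named genes that were tested no call or direction changed. Of the named genes that were not called, 4 changed sign: under median-ratio scaling Wwtr1 was at 0.12, Cyr61 at 0.15 and Wtip at 0.084, and with a library left out Wwtr1 ranged from -0.093 to 0.033, Cyr61 from -0.26 to 0.26, Wtip from -0.14 to 0.027 and Tead1 from -0.025 to 0.073. With a library left out the lone library of its group was assumed to vary like the others. All genes then gave 1775 to 2559 higher and 2796 to 4181 lower, while limma-voom on recovered reads gave 3516 higher and 5603 lower. With a library left out the higher counts were 1 to 4 for core kinases, 2 to 4 for YAP retention and turnover, 1 to 4 for the target signature and 0 to 2 for CCN and thrombospondin families. The lower counts were 5 to 8 for junction scaffolds, 0 to 5 for retention and turnover and 6 to 10 for SRF targets. Median-ratio scaling gave 5 lower junction scaffolds, 0 lower retention genes, 2 higher CCN or thrombospondin genes and 2 higher genes of the SRF and MRTF list. Limma-voom gave 2 higher CCN or thrombospondin genes, 11 lower junction scaffolds, 6 lower retention genes and 12 lower signature genes. No filter gave 2 higher CCN or thrombospondin genes. The cause of these shifts was not tested.

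Replicate numbers gave no pairing in the labels. The correlation of replicate 1 minus replicate 2 between groups was 0.09 across genes, which are not independent replicates. With the replicate block there were 2728 higher and 4587 lower genes, 5 lower TEAD and cofactor genes in place of 3 (Tead3 and Vgll3 gained a call, adjusted p = 0.0335 and 0.00639), and 2 higher CCN or thrombospondin genes in place of 1. With a pseudocount of 0.1 or a library left out, the log2 difference was 0.59 to 0.79 for Wwtr1 to Yap1 and 1.59 to 2.22 for Cyr61 to Ctgf. With 2 libraries a group, the spread of a single gene is poorly known, and Tead4, Thbs2, Nov and Ankrd2 were too low to test.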
